A study of Mus musculus with 4 samples.

Results

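Astrocytes are the glia that surround synapses and vessels, and the 31 genes described here encode products by which they are known: the filament protein Gfap, the water channel Aqp4, glutamate transporters, gap junction proteins, metabolic enzymes, lipid carriers and transcriptional regulators. The genes were taken from a list of symbols, and each was read from array probe sets annotated to that symbol alone. All 31 were measured, among 18193 genes in all, with 72 probe sets between them. The probe set that was brightest on average stood for its gene, and the other 41 served as a check. No filter on low values was applied, so that no member was lost.

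RNA from punches labelled prelimbic cortex, a medial prefrontal area, was read on Affymetrix 3' expression arrays from male mice on postnatal day 90. The 2 groups were mice exposed to fluoxetine before birth and untreated control mice, with 2 arrays each, which the submitters call biological duplicates. Fluoxetine is a selective serotonin reuptake inhibitor. Neither a strain, a dose, the days of exposure nor the number of mice behind an array is given in the sources used here, so the p-values measure only the spread between these arrays. Values are log2 intensities, a difference is fluoxetine minus untreated on that scale, and levels of different probe sets are not compared as abundances. In tissue RNA, fewer astrocytes and less RNA per astrocyte cannot be told apart.

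Astrocytes clear synaptic glutamate through the transporters encoded by Slc1a2 (GLT-1) and Slc1a3 (GLAST), and convert it to glutamine with the glutamine synthetase encoded by Glul. They are joined into networks by gap junctions made of the connexins that Gja1 and Gjb6 encode, and their end-feet on vessels hold aquaporin-4 (Aqp4). In cortex, injury and inflammation are known to raise Gfap, while many resting protoplasmic astrocytes express little of it.

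The arrays had median log2 intensities of 6.44 to 6.50 and correlated at 0.996 to 0.997 with one another. Markers of other cells differed between arrays. Striatal neuron markers averaged 8.88 and 9.16 over 10 genes with fluoxetine and 9.01 and 9.96 without, and oligodendrocyte markers 11.39 and 11.37 over 9 genes with fluoxetine and 11.35 and 11.64 without, so untreated replicate 2 stood highest in both. Ependymal markers are of the cells that line the ventricles and share S100b with astrocytes. They averaged 6.50 and 6.45 over 8 genes with fluoxetine and 6.61 and 6.86 without, below the median level of all genes (7.87). Of these 8, 3 were lower with fluoxetine at an unadjusted p below 0.05 in limma, beside 3.51% of all genes, with a median log2 difference of −0.26. The 3 became 2, 1, 4 and 2 without fluoxetine replicate 1, fluoxetine replicate 2, untreated replicate 1 and untreated replicate 2, and the median was −0.39 without untreated replicate 1 and −0.15 without untreated replicate 2. Meningeal fibroblast markers averaged 8.86 and 8.85 over 8 genes with fluoxetine and 8.71 and 8.84 without. In limma 2 of these 8 were higher at an unadjusted p below 0.05 and 0 were lower, beside 3.45% and 3.51% of all genes. They were the matrix genes Dcn (0.23, SE 0.08) and Col1a2 (0.20, SE 0.08). The median difference of the 8 was 0.09. The 2 became 0 without fluoxetine replicate 1, fluoxetine replicate 2 or untreated replicate 1 and 4 without untreated replicate 2, where the median was 0.22, against 0.03 without untreated replicate 1. Ttr, the choroid plexus transcript, read 11.71 on fluoxetine replicate 1 and 8.09 on fluoxetine replicate 2, and 6.67 and 8.97 on the untreated arrays. The choroid plexus gene Kl read 4.69 and 4.49 with fluoxetine and 4.36 and 4.43 without. Kcne2 and Otx2, of the same list, differed the other way, by −0.38 (SE 0.24) and −0.24 (SE 0.19). Of the 7 choroid plexus genes measured, 0 passed an unadjusted p of 0.05 in limma, and the median difference was −0.02. The 31 astrocyte genes averaged 11.01 and 11.08 with fluoxetine and 10.97 and 11.07 without. Neuron markers averaged 12.75 and 12.72 over 10 genes with fluoxetine and 12.70 and 12.71 without. The part of other cells in the differences of astrocyte genes was not tested.

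**Figure D1:**
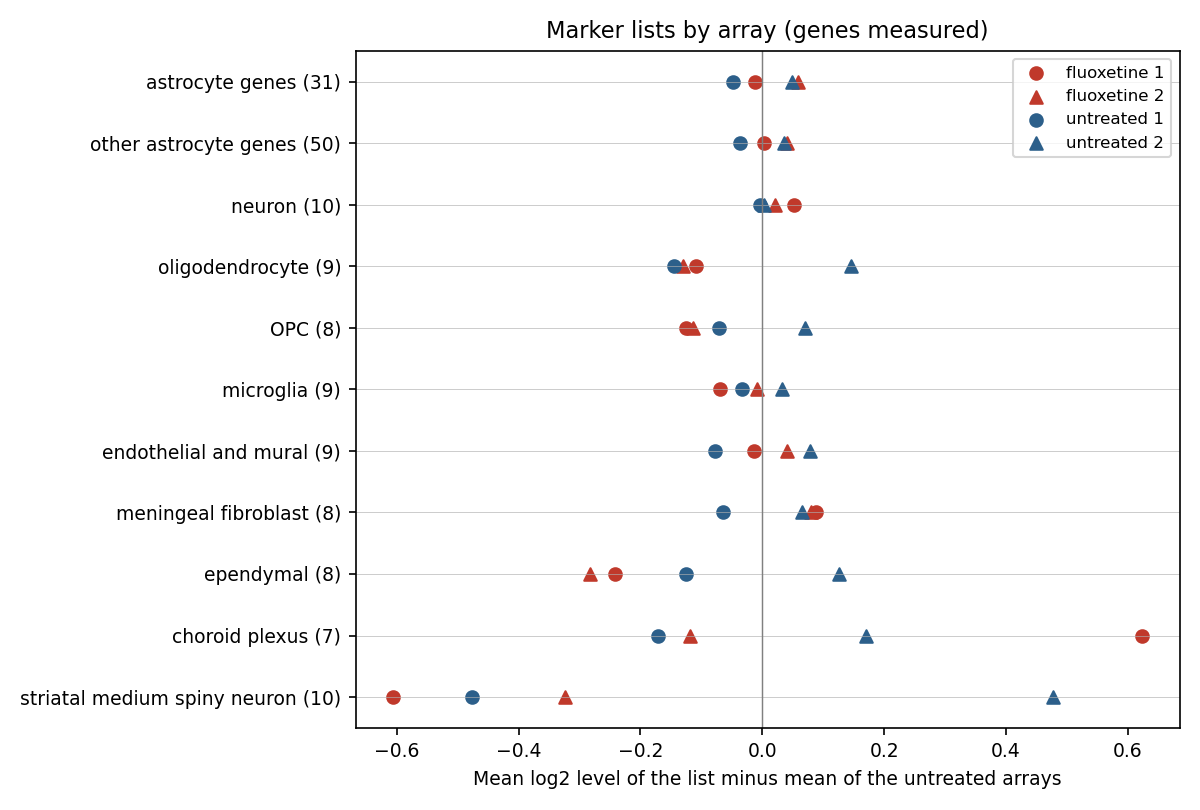
Mean log2 level of each marker list on each array minus the mean of the untreated arrays, with the number of genes measured in brackets. The astrocyte lists stay within 0.06 of zero on all 4 arrays, while striatal and oligodendrocyte markers stand highest on untreated replicate 2 and the choroid plexus list on fluoxetine replicate 1.

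The comparison asked how prenatal fluoxetine bears on the adult prelimbic transcriptome, and the astrocyte genes showed small differences of both signs. At an unadjusted p below 0.05 in the limma fit, 3 of the 31 genes were higher on the fluoxetine arrays (Gjb6, Slc1a3 and Slc1a2), 1 was lower (Atp1b2) and 27 did not pass. Over all genes tested, 3.45% were higher and 3.51% lower by the same rule. The split over all genes was 628 higher and 638 lower, against 573 and 1113 after a further quantile normalization and 846 and 431 with array medians subtracted. After Benjamini-Hochberg adjustment over all 18193 genes, 0 of the 31 passed in the limma fit, as did 0 of all genes, and the lowest adjusted p among the 31 was 0.696. The median difference of the 31 genes was 0.03, beside −0.02 for all genes. That of the 31 was −0.0027 after the quantile normalization, −0.0015 without fluoxetine replicate 2 and −0.01 without untreated replicate 1. The 3 higher genes became 1 without fluoxetine replicate 2 and 5 without untreated replicate 2, and the 1 lower gene became 3 without untreated replicate 1 and 0 without fluoxetine replicate 1.

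The connexin gene Gjb6 and the glutamate transporter gene Slc1a3 had the largest positive differences of the 31. Gjb6 read 10.45 and 10.45 on the fluoxetine arrays and 10.19 and 10.11 on the untreated arrays, with no overlap of the groups. Its difference was 0.30 (SE 0.05, 95% interval 0.17 to 0.43), a 1.23-fold higher level (limma, adjusted p = 0.696). Gjb6 has 1 probe set on the array, and its difference was 0.26 to 0.34 with each of the 4 arrays left out in turn. The 2 fluoxetine values were equal, with an SD of 0, so leaving out either of them could not move the difference from 0.30.

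Slc1a3 read 11.62 and 11.77 with fluoxetine and 11.45 and 11.52 without, and both fluoxetine arrays lay above both untreated arrays. The difference was 0.21 (SE 0.06), or 1.16-fold. It no longer passed the unadjusted threshold without fluoxetine replicate 2 (0.14), without untreated replicate 1 (0.18), with the mean of its probe sets (0.14) or when the variance was fitted without an intensity trend. The 3 other Slc1a3 probe sets with levels near 11 differed by 0.15, 0.25 and 0.11, of which the first and the second passed. The remaining 2, at log2 levels below 5, differed by −0.21 (SE 0.15) and 0.36 (SE 0.22).

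Slc1a2 read 13.73 and 13.73 on the fluoxetine arrays, against 13.67 and 13.59 on the untreated arrays, without overlap. Its difference of 0.10 (SE 0.04) was the smallest of those past the unadjusted threshold, and it did not pass without fluoxetine replicate 1, without fluoxetine replicate 2, without untreated replicate 2 (0.06), after the quantile normalization (0.08) or without the trend. Among its 4 other probe sets 1 was higher, by 0.22 (SE 0.07), and the others differed by 0.02, −0.15 and −0.34 without passing.

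Promoter sequences of the connexin, glutamate transporter and glutamine synthetase genes are shown for comparison with one another, although no measurement of binding or methylation enters here. They come from RefSeq on assembly GRCm38.p6, run 5′ to 3′ on the gene's strand from 250 bases before the start to 50 after it, and were found for 26 of the 31 genes (not for Aqp4, Atp1b2, Clu, Sox9 and Sparcl1). The Gjb6 promoter lies at chr14:57133562-57133861 on the minus strand, that of Slc1a3 at chr15:8710758-8711057 on the minus strand, that of Slc1a2 at chr2:102706188-102706487 on the plus strand, that of Gja1 at chr10:56377050-56377349 on the plus strand and that of Glul at chr1:153899679-153899978 on the plus strand. Capitals mark matches, on either strand, to 4 motifs: the core of the nuclear factor I site (TTGGC), a STAT site (TTCNNNGAA), a GC box (GGGCGG) and a TATA box (TATAAA).
Gjb6: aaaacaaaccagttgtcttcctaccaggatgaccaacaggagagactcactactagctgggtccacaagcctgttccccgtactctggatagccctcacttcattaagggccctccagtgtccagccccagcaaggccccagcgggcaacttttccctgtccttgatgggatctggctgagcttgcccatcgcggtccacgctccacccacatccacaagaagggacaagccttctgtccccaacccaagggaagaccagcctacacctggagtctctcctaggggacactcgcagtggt
Slc1a3: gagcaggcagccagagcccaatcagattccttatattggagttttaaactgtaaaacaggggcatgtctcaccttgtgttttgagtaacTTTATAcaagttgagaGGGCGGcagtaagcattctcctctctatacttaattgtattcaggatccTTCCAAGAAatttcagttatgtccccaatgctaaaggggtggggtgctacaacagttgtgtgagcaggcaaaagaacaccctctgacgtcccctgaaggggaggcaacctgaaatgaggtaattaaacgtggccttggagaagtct
Slc1a2: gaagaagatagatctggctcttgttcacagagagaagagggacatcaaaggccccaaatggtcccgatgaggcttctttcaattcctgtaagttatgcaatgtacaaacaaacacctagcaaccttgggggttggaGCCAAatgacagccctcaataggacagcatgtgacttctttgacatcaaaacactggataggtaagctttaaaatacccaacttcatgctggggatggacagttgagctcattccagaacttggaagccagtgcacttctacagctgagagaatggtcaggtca
Gja1: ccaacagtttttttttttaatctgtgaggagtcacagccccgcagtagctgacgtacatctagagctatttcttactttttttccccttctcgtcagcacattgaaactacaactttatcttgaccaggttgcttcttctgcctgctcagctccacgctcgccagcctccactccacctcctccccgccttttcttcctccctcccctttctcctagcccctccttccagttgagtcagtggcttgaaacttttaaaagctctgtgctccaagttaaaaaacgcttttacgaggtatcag
Glul: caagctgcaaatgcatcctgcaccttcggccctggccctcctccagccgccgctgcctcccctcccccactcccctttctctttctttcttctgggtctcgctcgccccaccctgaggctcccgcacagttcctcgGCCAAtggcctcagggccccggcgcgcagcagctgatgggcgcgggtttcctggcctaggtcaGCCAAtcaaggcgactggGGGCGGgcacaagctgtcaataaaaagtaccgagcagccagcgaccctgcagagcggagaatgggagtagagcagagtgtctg

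The Slc1a3 window held 1 STAT match, 1 GC box and 1 TATA match, the last of them on the minus strand of the window. The Slc1a2 window held 1 nuclear factor I core, the Glul window 2 of these and 1 GC box, and the windows of Gjb6 and Gja1 none of the 4. Over the 32 promoters of the 26 genes, that core was found in 53.1%, beside 46.7% of all 32851 promoters in the table. A STAT match was found in 15.6% (5 promoters), beside 8.30% of all, a GC box in 43.8%, beside 35.7%, and a TATA match in 15.6%, beside 13.6%. These are letter matches only.

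**Figure D2:**
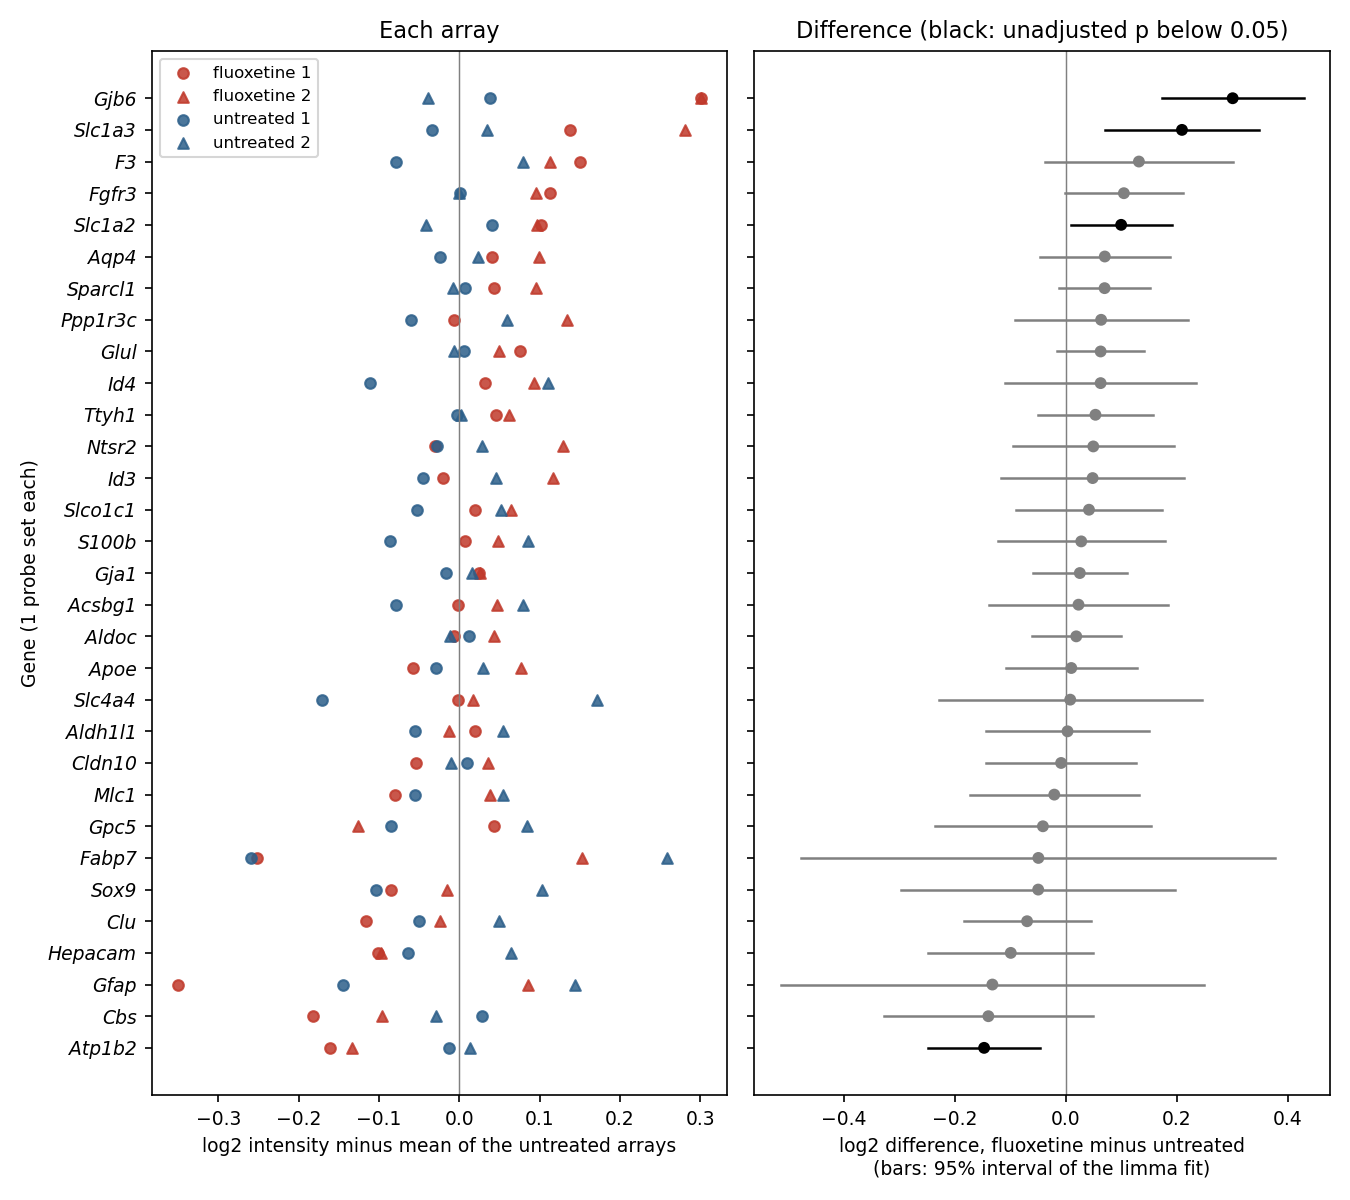
Astrocyte genes by array and by difference. Left, the log2 intensity of each gene on each array minus the mean of the untreated arrays; right, the log2 difference with its 95% interval. Gjb6, Slc1a3, Slc1a2 and Atp1b2 are the 4 genes in black, while Gfap and Fabp7 are the widest on the left.

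Of the other genes of glutamate handling and coupling, Glul read 13.62 and 13.59 with fluoxetine and 13.55 and 13.53 without, a difference of 0.06 (SE 0.03) that did not pass although the groups did not overlap. Gja1 read 12.89 and 12.89 with fluoxetine and 12.85 and 12.88 without (difference 0.03, SE 0.04). Its probe set, like that of Clu, is of a kind that the array maker marks as prone to cross-hybridization. Of the same kind are the Slc1a3 probe set that differed by 0.25 and the other Gja1 probe sets that differed by 0.18, 0.08 and −0.0005. So are the other Clu probe sets that differed by 0.11 and −0.01.

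The genes of ion and water balance differed in sign. Atp1b2, the beta subunit of the sodium pump found on astrocytes, read 11.50 and 11.53 on the fluoxetine arrays and 11.65 and 11.68 on the untreated arrays, both fluoxetine arrays lying below. The difference of −0.15 (SE 0.04) is a 1.11-fold lower level, and it did not pass without fluoxetine replicate 1 (−0.13), after array medians were subtracted (−0.11) or without the trend. The other Atp1b2 probe set differed by 0.06 (SE 0.11) with overlapping groups. Aqp4 read 10.90 and 10.96 with fluoxetine and 10.84 and 10.88 without, a difference of 0.07 (SE 0.05) with no overlap. Slc4a4, a sodium bicarbonate cotransporter, read 11.10 and 11.12 with fluoxetine and 10.93 and 11.27 without, so that the untreated arrays enclosed both others (difference 0.0078, SE 0.10). Mlc1 and Hepacam, whose proteins form a complex at astrocyte contacts and end-feet, differed by −0.02 (SE 0.07) and −0.10 (SE 0.06). Both fluoxetine arrays lay below both untreated arrays for Hepacam. It passed an unadjusted p of 0.05 in limma as lower after the quantile normalization (−0.14). The Hepacam difference was −0.16 without untreated replicate 1 and −0.03 without untreated replicate 2. Cldn10, a claudin, differed by −0.01 (SE 0.06), with overlapping groups. Ttyh1, of a family of proteins described as anion channels, read 11.22 and 11.24 with fluoxetine and 11.17 and 11.18 without (0.05, SE 0.04), and its 3 other probe sets differed by 0.06, −0.0092 and −0.06.

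Structural and calcium-binding markers gave no difference past the threshold. Gfap read 7.44 and 7.88 with fluoxetine and 7.65 and 7.94 without, and the gap of 0.44 between the fluoxetine arrays exceeded the group difference of −0.13 (SE 0.16). Its other 2 probe sets differed by −0.15 and −0.02, with overlapping groups. Fabp7, a fatty acid binding protein of radial glia and astrocytes, had the same arrangement, with 9.79 and 10.19 with fluoxetine and 9.78 and 10.30 without (difference −0.05, SE 0.18). These 2 genes had the largest SE of the 31, whose SE ran from 0.03 to 0.18. S100b read 11.24 and 11.28 with fluoxetine and 11.15 and 11.32 without (difference 0.03, SE 0.06; −0.02 with its other probe set). The secreted matrix protein gene Sparcl1 differed by 0.07 (SE 0.03) without overlap, and Gpc5, a glypican, by −0.04 (SE 0.08).

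Enzymes and carriers of metabolism were also close between groups. Aldh1l1, the folate enzyme used to mark astrocytes across the brain, read 9.84 and 9.81 with fluoxetine and 9.77 and 9.88 without, a difference of 0.0030 (SE 0.06, 95% interval −0.14 to 0.15). The glycolytic Aldoc differed by 0.02 (SE 0.03), the acyl-CoA synthetase gene Acsbg1 by 0.02 (SE 0.07) and Ppp1r3c, a regulator of glycogen synthesis, by 0.06 (SE 0.07). Cbs, which makes cystathionine from homocysteine, read 8.15 and 8.23 on the fluoxetine arrays and 8.36 and 8.30 on the untreated arrays. That difference of −0.14 (SE 0.08) did not pass, and the other Cbs probe set differed by 0.01. Among lipid and hormone carriers, the lipoprotein gene Apoe differed by 0.01 (SE 0.05) and Slco1c1, a thyroid hormone transporter, by 0.04 (SE 0.06). Clu, the gene of the secreted chaperone clusterin, read 13.33 and 13.43 with fluoxetine and 13.40 and 13.50 without, with overlap (−0.07, SE 0.05). The 3 other Clu probe sets differed by 0.11, −0.01 and 0.0047.

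Regulators and receptors completed the list. Sox9, the glial transcription factor, read 7.52 and 7.59 with fluoxetine and 7.51 and 7.71 without (difference −0.05, SE 0.10), and its other probe sets differed by 0.12 and −0.03. Id4, an inhibitor of basic helix-loop-helix factors, read 11.68 and 11.74 with fluoxetine and 11.54 and 11.76 without (0.06, SE 0.07), against −0.08 and −0.12 with its other probe sets. Id3 differed by 0.05 (SE 0.07). Fgfr3, a fibroblast growth factor receptor, read 11.06 and 11.04 with fluoxetine and 10.95 and 10.95 without, and its difference of 0.10 (SE 0.05, 95% interval −0.0022 to 0.21) narrowly missed the unadjusted threshold. The neurotensin receptor gene Ntsr2 differed by 0.05 (SE 0.06). F3, tissue factor, read 9.61 and 9.57 with fluoxetine and 9.38 and 9.54 without (0.13, SE 0.07).

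Over the whole list, both fluoxetine arrays lay above both untreated arrays for 10 of the 31 genes and below them for 3, while the groups overlapped for 18. Among all genes 15.5% had the first arrangement and 22.3% the second. Among genes of higher level more passed as higher than as lower, although their median difference was 0.0031. When limma was run on the 9096 genes above the median level of all genes (7.87), 5.75% passed an unadjusted p of 0.05 as higher and 2.29% as lower, and of the 29 astrocyte genes among them 4 were higher and 1 lower. Gfap and Sox9 were the 2 genes below the median level. With the probe set that stood for each gene, the 95% interval lay within 0.5 of zero for 30 of the 31 genes. The exception was Gfap (−0.51 to 0.25). Intervals of some other probe sets went past 0.5 either way, to 0.80 for Aqp4, 0.54 for Gja1 and −0.74 for Slc1a2.

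The spread within groups was of the same order as the differences between them. Replicate 2 stood above replicate 1 for 24 of the 31 genes in the fluoxetine group and for 23 in the untreated group, with median gaps of 0.05 and 0.09. Over all genes these median gaps were 0.0019 and 0.03. The group difference exceeded both within-group gaps for 10 of the 31 genes (32.3%), beside 25.1% of all genes. Slc4a4, Id4 and F3 lay lower on untreated replicate 1, and without untreated replicate 2 they were higher with fluoxetine at an unadjusted p below 0.05, by 0.18, 0.17 and 0.21. Without untreated replicate 1, Slc4a4 passed the same threshold as lower (−0.16).

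The other probe sets gave a different picture for a few of these genes. In a limma fit of all 34945 named probe sets, 13 of the 72 astrocyte probe sets were higher at an unadjusted p below 0.05 and 1 was lower, beside 6.4% and 3.04% of all named probe sets. The 13 belong to 7 genes, and probe sets of 1 gene are repeated readings of it. The lowest adjusted p among the 72 was 0.331, shared by Aqp4, Gja1, Gjb6 and Glul. Without an array the 13 became 7 (fluoxetine replicate 1), 8 (fluoxetine replicate 2), 7 (untreated replicate 1) and 14 (untreated replicate 2), and the 1 lower probe set became 7 without untreated replicate 1 and 3 without untreated replicate 2.

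Aqp4 had the largest difference among them. The probe set 1425382_a_at read 8.46 and 8.45 on the fluoxetine arrays and 7.94 and 7.78 on the untreated arrays, a difference of 0.59 (SE 0.09, 95% interval 0.38 to 0.80), or 1.5-fold. The probe set 1447745_at read 7.68 and 7.63 with fluoxetine and 7.31 and 7.27 without (0.37, SE 0.09). Neither overlapped between groups, while 1434449_at, the one of highest level, differed by 0.07.

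Gja1 had 6 probe sets. The probe set 1415801_at read 9.61 and 9.71 with fluoxetine and 9.31 and 9.24 without, a difference of 0.38 (SE 0.07), or 1.30-fold. A further 2 passed the unadjusted threshold, at 0.18 and 0.11, and the rest differed by 0.03, 0.08 and −0.0005. For Glul, 1426235_a_at read 12.59 and 12.59 with fluoxetine and 12.26 and 12.38 without (0.27, SE 0.05), against 0.06 for the probe set of highest level. For Ppp1r3c, 1425631_at read 8.79 and 8.84 with fluoxetine and 8.42 and 8.64 without (0.29, SE 0.09), but did not pass without fluoxetine replicate 1, fluoxetine replicate 2 or untreated replicate 1. The 2 Aqp4 probe sets, 1415801_at of Gja1, 1426235_a_at of Glul and the probe set of Gjb6 passed with each array left out and after both other scalings.

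**Figure D3:**
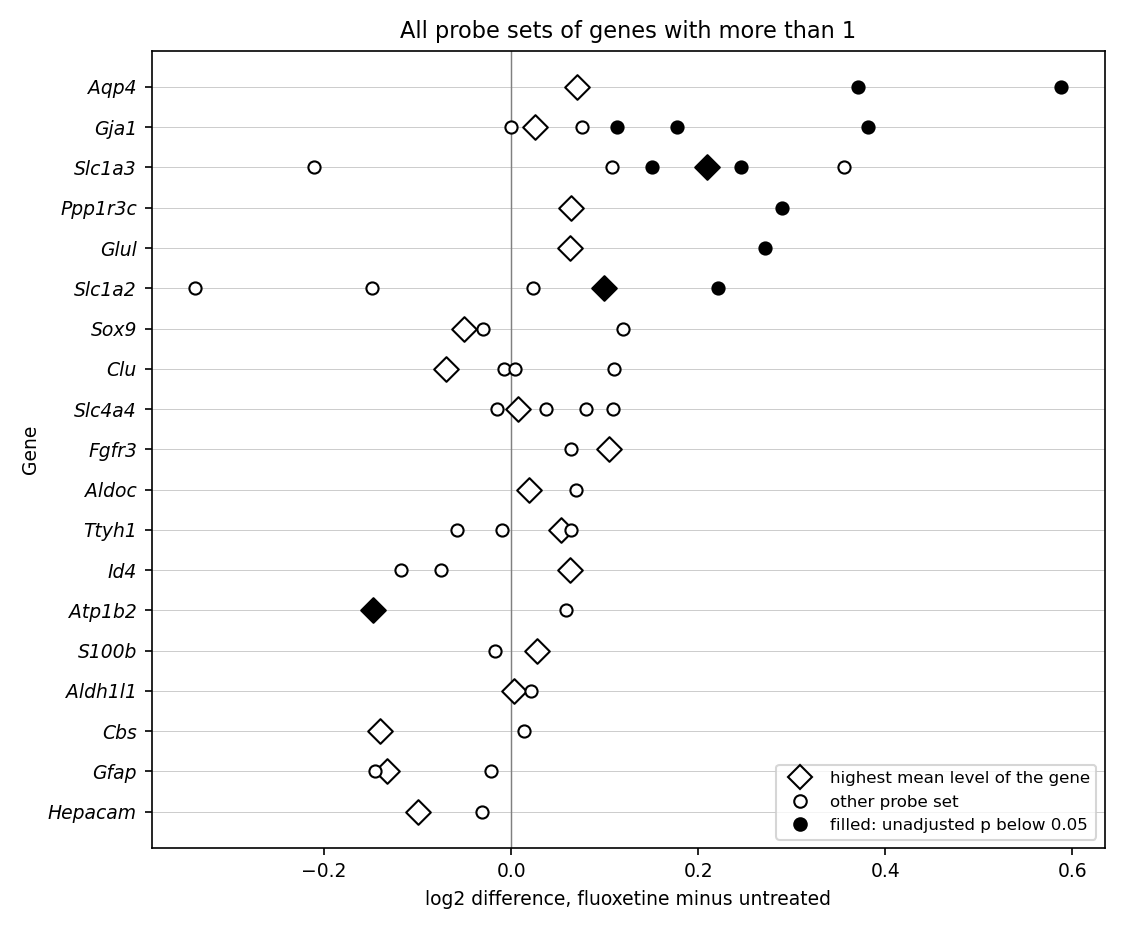
Log2 difference, fluoxetine minus untreated, of every probe set of the 19 astrocyte genes with more than 1. Diamonds are the probe sets of highest level, circles the others, and filled symbols passed an unadjusted p of 0.05. The diamonds of Aqp4, Gja1, Glul and Ppp1r3c lie between 0.03 and 0.07, and a filled circle of each lies between 0.27 and 0.59.

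Secondary probe sets also leaned higher over the whole array. Among the 6847 probe sets that are not the highest of their gene and lie above a log2 intensity of 7.12, the median level of all named probe sets, 18.1% were higher on the fluoxetine arrays and 1.15% lower, with a median difference of 0.05. The 29 such probe sets of the astrocyte genes had 10 higher (34.5%) and 0 lower in limma, with a median of 0.08. Without fluoxetine replicate 1 these 10 became 5 and the share over all such probe sets 5.67%, and without untreated replicate 1 there were 5 higher and 4 lower beside 12.2% and 3.13%. On the same arrays the spiked poly-A control transcripts stood higher in 24 of 24 probe sets, by a median of 0.28 at their 5' ends and 0.17 at their 3' ends. The 5' probe sets of the Actb and Gapdh controls differed by 0.13 and 0.08 and the 3' ones by 0.04 and 0.03, whereas the 5' probe sets of Pcx and Tfrc differed by −0.10 and −0.10. The hybridization controls had a median difference of 0.05 over 18 probe sets. Where in their transcripts the Aqp4, Gja1, Glul and Ppp1r3c probe sets lie is not given in the files used here, and the part of these control values in the result was not tested.

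**Figure D4:**
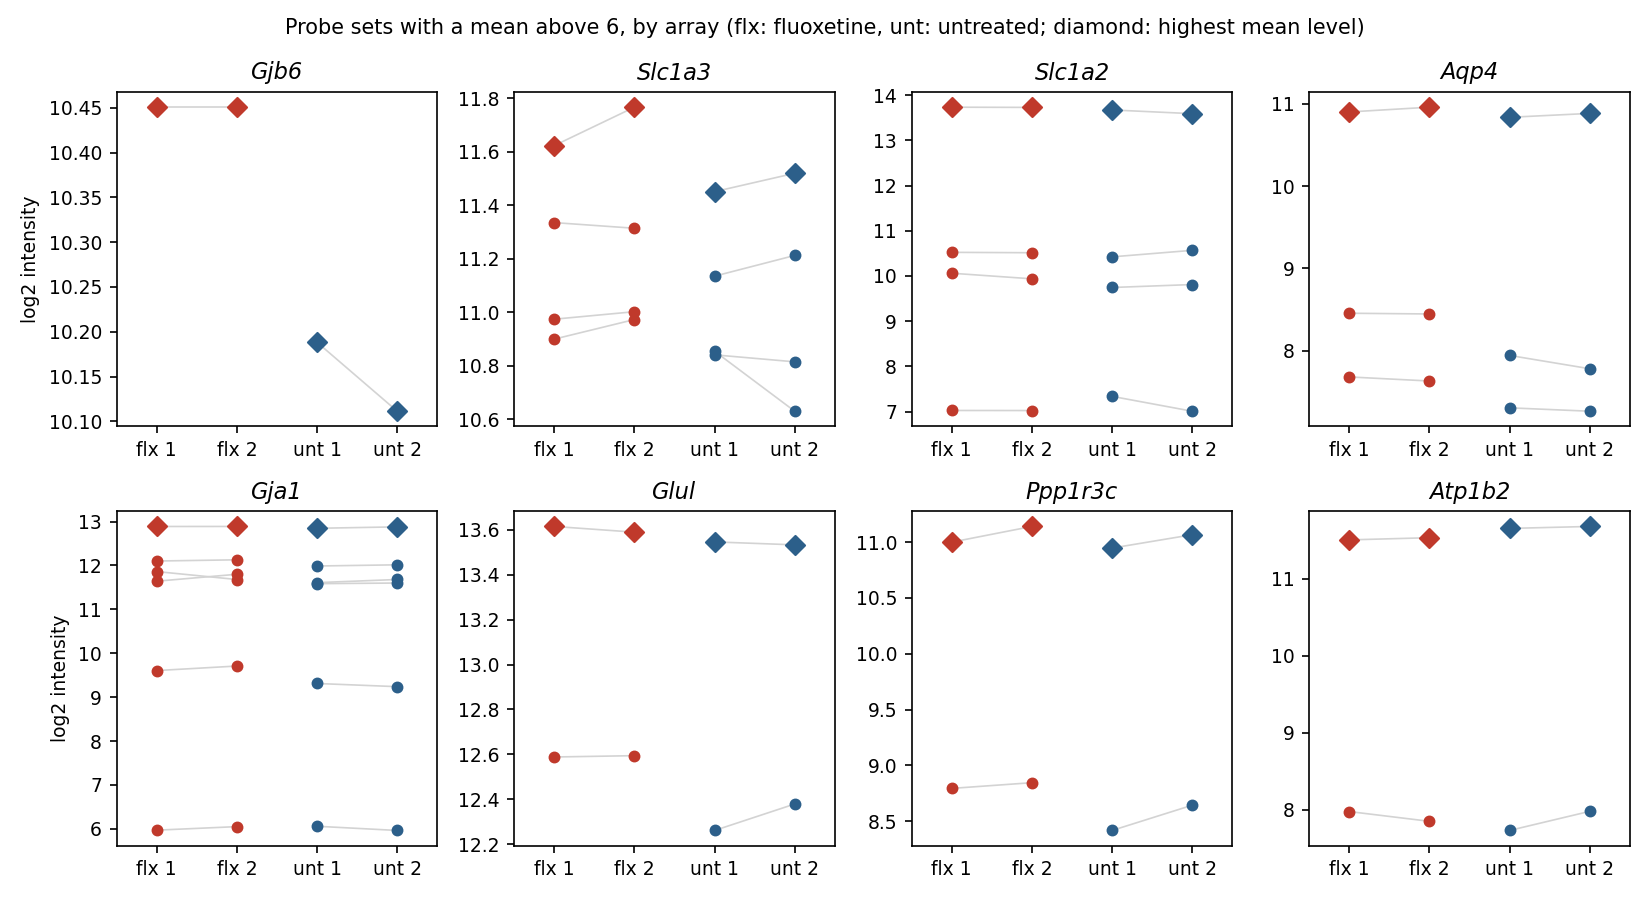
Log2 intensity by array for 8 astrocyte genes, fluoxetine in red and untreated in blue, with a separate scale for each gene. Probe sets with a mean above 6 are shown, and for each a grey line joins the 2 arrays of a group. The upper Aqp4 probe set is nearly level across arrays, and the others sit near 8.45 and 7.66 with fluoxetine, against values of at most 7.94 and 7.31 without.

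Lists of genes of the same pathways, each with 1 to 3 of the 31 genes among them, had medians between −0.08 and 0.02. The sign of all 6 medians turned on the untreated arrays: they were −0.12 to −0.02 without untreated replicate 1 and 0.04 to 0.08 without untreated replicate 2. Of 13 measured genes of glutamate and glutamine handling, 4 were higher at an unadjusted p below 0.05 and 0 lower in the limma fit, with a median difference of 0.02 (−0.0093 after a further quantile normalization). Beside Slc1a3 and Slc1a2 these were Slc38a2, an amino acid transporter not confined to glia (0.22, SE 0.06), and Got1, the cytosolic aspartate aminotransferase (0.11, SE 0.04). The 4 became 1 without fluoxetine replicate 1, 2 without fluoxetine replicate 2 or untreated replicate 1, and 0 without the trend. Over all genes the limma fit had 3.45% higher and 3.51% lower, and that of genes above the median level 5.75% and 2.29%. Of 11 connexin and pannexin genes, Gjb6 was the 1 that passed, and the median was −0.08. Of 6 sodium pump genes (the main alpha subunits were not analysed here), Atp1b2 was lower and Atp1b1, the beta subunit typical of neurons, higher, at 14.29 and 14.17 with fluoxetine and 14.12 and 14.06 without (0.14, SE 0.05), but Atp1b1 did not pass without fluoxetine replicate 1 or untreated replicate 2. Of 11 genes of the end-foot and its dystrophin complex, Dmd, which encodes dystrophin, was higher (0.18, SE 0.07) and the rest did not pass, but 0 were higher without fluoxetine replicate 1 or untreated replicate 1, 2 were higher without untreated replicate 2, and 2 were lower without untreated replicate 1 or after the quantile normalization. Of 15 genes of glycogen and lactate metabolism, Slc2a1, the glucose transporter of vessels and astrocytes, was higher (0.20, SE 0.05) and 0 were lower, and without untreated replicate 2 there were 2 higher. The 14 measured genes of lipid carriage and cholesterol supply had 0 higher and 0 lower in limma, with a median of −0.06, but 4 lower after a further quantile normalization and 3 lower without untreated replicate 1.

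Genes of glial transcription and of bone morphogenetic protein and Notch signalling had a positive median. Of 20 such genes, 3 of them members of the list of 31, 2 were higher and 0 lower, with a median difference of 0.10 (0.08 and 0.14 after the other scalings). The median was 0.06 without fluoxetine replicate 2 and 0.05 without untreated replicate 1. Meningeal fibroblast markers, with a median of 0.09, differed in the same direction, and their part in the result was not tested. Id1, a target of bone morphogenetic protein signalling, read 9.37 and 9.52 with fluoxetine and 9.08 and 9.20 without (0.30, SE 0.08). Nfix, of the nuclear factor I family, read 11.89 and 11.72 with fluoxetine and 11.63 and 11.56 without (0.21, SE 0.06). The 2 became 6 without untreated replicate 2 and 1 with either fluoxetine array left out. Both fluoxetine arrays lay above both untreated arrays for 10 of the 20 and below for 1. Among all genes, 15.5% and 22.3% had these arrangements. At an unadjusted p below 0.05 in limma, 3.45% of all genes were higher and 3.51% lower.

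Genes known from reactive astrocytes had 1 higher and 1 lower member in all. Of 13 general markers, which include Gfap, Hspb1, a small heat shock protein, was higher (0.31, SE 0.06) and 0 were lower. Of 9 markers linked to inflammation, Iigp1, an interferon-inducible GTPase, was lower (−0.37, SE 0.14) and 0 were higher, but 0 were lower with either fluoxetine array or untreated replicate 2 left out, 3 were lower without untreated replicate 1, and 2 were higher without untreated replicate 2. Of 13 markers linked to ischemia, 0 were higher and 0 lower in limma. In a list of 50 further astrocyte genes, 4 were higher and 1 was lower, with a median of 0.02. The higher ones were Grm3, a metabotropic glutamate receptor (0.24, SE 0.06), Dio2, the deiodinase that activates thyroid hormone (0.21, SE 0.05), Chrdl1, a secreted antagonist of bone morphogenetic proteins (0.19, SE 0.07), and Aldh6a1, a mitochondrial dehydrogenase of valine breakdown (0.14, SE 0.05), and the lower one was the metallothionein gene Mt1 (−0.10, SE 0.04). The 4 became 9 without untreated replicate 2 and 2 with either fluoxetine array left out. By the same rule, 3.45% of all genes were higher and 3.51% lower. In the fit of the 9096 genes above the median level, the shares were 5.75% and 2.29%.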

How the data were processed

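The deposited values are log2 intensities per probe set, which the authors made with RMA through the affy package, per the submitters' processing notes, where limma is also named. Versions and any other background correction are not given in the sources used here, and base 2 was inferred from the range of the values. The table held 45101 probe sets, 64 of them array controls. Names came from the platform annotation: 34945 probe sets had 1 symbol and were tested, 932 had several and 9160 had no row and are unnamed here.

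Each of 18193 genes was represented by its probe set of highest mean. Fluoxetine was compared with untreated with lmFit and eBayes of limma (version 3.58.1, under R 4.3.3), the variance trended on intensity. Tests were two-sided, p-values were adjusted over all genes after Benjamini and Hochberg, and the threshold was 0.05. The fit had 2 residual and 5.15 prior degrees of freedom, so much of each variance came from other genes. An exact permutation test of 2 against 2 arrays cannot go below 0.333, and the number of arrays limits the precision. Replicate numbers follow accession order and pair nothing.

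The members and gene lists were chosen with earlier results of these data known. Values per array were given for members past an unadjusted p of 0.05, for those whose probe sets disagree in sign, for those with groups apart by at least 0.15 or 1 array apart by at least 0.3, and for 10 set genes. They were also given for Fabp7, Fgfr3 and F3, which met none of these rules. From other lists at most the 4 of smallest p were named, except that Mt1 was also named from the 50 further astrocyte genes. Alternatives were other scalings, other probe set choices, no trend, a filter on level and leaving out each array. The same fit was run on all named probe sets, and its scaling and left-out-array alternatives were added after seeing the data. On simulated data for this comparison, 20 draws were made over 18193 genes with 200 changed. An adjusted p below 0.05 was reached by 38.9% of genes with a 1.25-fold change, 74.1% with a 1.5-fold change and 97.2% with a 2-fold change. The noise was drawn independently for each gene and array at the size fitted in limma, without shifts shared by the genes of an array. These shares hold only for noise of that kind.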

Additional observations from a re-analysis of the deposited data

How the results depend on the processing

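No paired analysis was possible because the labels give no replicate numbers shared between groups. Gjb6 kept its direction under all 10 alternatives, at differences of 0.26 to 0.34. It has 1 probe set, so the other choices of probe set could not move its difference of 0.30. Nor could the fit without the trend, the filter on level or leaving out either fluoxetine array. With all 4 arrays kept, Gjb6 passed an unadjusted p of 0.05 in limma under each alternative. Over all genes, 1266 passed that threshold, 731 when only genes above the median level were tested (9096 genes) and 369 to 1716 with an array left out. Of the 31 astrocyte genes, 3 were higher and 1 was lower. The higher count was 5 with the mean and 5 with the most variable of a gene's probe sets, 1 without the intensity trend, and 1 to 5 with an array left out. The lower count was 2 after a further quantile normalization, 0 with array medians subtracted, with either other choice of probe sets and without the trend, and 0 to 3 with an array left out. In the probe set fit, 13 were higher and 1 was lower. The lower count was 2 after quantile normalization and 0 after median subtraction, and with an array left out 7 to 14 were higher and 0 to 7 lower. Where another probe set took the gene's place, the probe set itself is the change. The cause of the other shifts was not tested.

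Some differences changed sign. After quantile normalization these were −0.036 for Aldh1l1, −0.0027 for Gja1, −0.010 for S100b, −0.013 for Acsbg1, −0.034 for Slc4a4, −0.0017 for Apoe and −0.0031 for Slco1c1. With array medians subtracted they were 0.015 for Mlc1 and 0.028 for Cldn10. With the mean of probe sets they were −0.028 for Slc1a2, 0.013 for Sox9, 0.0094 for Clu and −0.044 for Id4. With the most variable or another single probe set they were −0.34 and −0.15 for Slc1a2, −0.21 for Slc1a3, −0.00055 for Gja1, −0.018 for S100b, 0.058 for Atp1b2, 0.12 for Sox9, −0.015 for Slc4a4, 0.11 and 0.0047 for Clu, 0.014 for Cbs, −0.058 and −0.0092 for Ttyh1, and −0.12 and −0.075 for Id4. With an array left out, the ranges that crossed 0 were −0.35 to 0.086 for Gfap, −0.052 to 0.058 for Aldh1l1, −0.058 to 0.11 for S100b, −0.0059 to 0.043 for Aldoc, −0.15 to 0.053 for Sox9, −0.056 to 0.10 for Acsbg1, −0.030 to 0.13 for Ntsr2, −0.16 to 0.18 for Slc4a4, −0.080 to 0.038 for Mlc1, −0.057 to 0.077 for Apoe, −0.011 to 0.094 for Slco1c1, −0.0067 to 0.13 for Ppp1r3c, −0.13 to 0.043 for Gpc5, −0.31 to 0.21 for Fabp7, −0.020 to 0.12 for Id3, −0.048 to 0.17 for Id4 and −0.053 to 0.036 for Cldn10.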
